A study of Mus musculus with 62 samples.

Results

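The major urinary protein (Mup) genes described here are 10 of the 47643 gene symbols measured in mouse liver: Mup1, Mup3, Mup7, Mup9, Mup12, Mup14, Mup16, Mup17, Mup20 and Mup21. They were chosen by symbol, with the values of cachectic and control livers at 8 weeks after injection already known, so the levels at 8 weeks are given as a description with no test. All 10 passed the filter on low values. Another 11 numbered Mup symbols are in the table and are described after the members.

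Liver RNA of 62 female mice aged 2 months was sequenced 2, 4, 6 or 8 weeks after an injection. In the CAC arm the mice received cachectic melanoma cells, in the NCAC arm melanoma cells that are labelled non-cachectic, and in the Con arm a mock injection. There were 5 livers in each arm at each week, except 7 in CAC at 8 weeks. The strain label of every sample reads C57BL6/J, whereas the study's design text names NCI Ath/nude mice, which lack a thymus, and the extraction protocol mentions LLC cells, which belong to none of the groups. The melanoma lines are not named in the labels, and each arm with tumour cells may rest on a single line. Nothing in the labels besides "biological replicates" says how the livers of a group relate, and each was taken as 1 animal. No group carries a transgene or a drug according to the labels.

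Major urinary proteins are small lipocalins, barrel-shaped carriers of volatile pheromones, that hepatocytes secrete into blood and that mice excrete in urine. Their genes lie in 1 large cluster of recent copies, and their transcripts are among the most abundant of the mouse liver. Transcription of most of them depends on pulses of growth hormone, which act through its receptor (Ghr), the kinase Jak2 and the factor Stat5b, so that males express more than females. Fasting and illness are known to lower them.

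The members lie on the minus strand of chromosome 4 (GENCODE M21, GRCm38, the assembly that mm10 names) in a cluster that runs from 59956804 to 62150863 and holds 22 numbered Mup genes and 27 Mup pseudogenes. Mup9 (ENSMUSG00000078686, chr4:60418046-60421952) and Mup17 (ENSMUSG00000096688, chr4:61591929-61595871) have coding sequences that are 99.3% identical, and Mup9 and Mup16 are 99.6% identical. Mup20 (chr4:62050234-62054158), which encodes the male pheromone protein darcin, is 91.0% identical to Mup9. Mup3 (chr4:62083476-62087342) and Mup21 (chr4:62147932-62150863) are 94.8% identical to each other, and only 83.1% and 84.6% identical to Mup9. To show how far reads can tell the members apart, bases 181 to 270 of the Mup9 coding sequence are printed with the aligned bases of 5 members, in which capitals mark bases that differ from Mup9.
Mup9: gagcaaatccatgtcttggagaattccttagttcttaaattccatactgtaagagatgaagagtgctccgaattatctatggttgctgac
Mup17: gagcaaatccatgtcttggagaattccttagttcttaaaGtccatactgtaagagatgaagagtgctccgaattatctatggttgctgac
Mup1: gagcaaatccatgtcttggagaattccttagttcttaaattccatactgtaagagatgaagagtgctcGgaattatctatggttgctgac
Mup20: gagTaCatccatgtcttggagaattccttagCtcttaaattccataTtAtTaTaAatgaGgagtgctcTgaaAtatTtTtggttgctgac
Mup3: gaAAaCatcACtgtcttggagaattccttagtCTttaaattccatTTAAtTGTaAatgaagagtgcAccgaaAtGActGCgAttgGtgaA
Mup21: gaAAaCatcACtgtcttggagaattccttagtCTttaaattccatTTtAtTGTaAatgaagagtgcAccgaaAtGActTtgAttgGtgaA
In this stretch Mup17 and Mup1 each differ from Mup9 at 1 of 90 bases, Mup20 at 13, Mup21 at 22 and Mup3 at 24. Of all runs of 50 bases in a member's transcripts, the share found in no transcript of another Mup gene was 8.29% for Mup16, 13.3% for Mup7, 14.6% for Mup12, 16% for Mup14, 20.9% for Mup9, 21.9% for Mup17 and 38.4% for Mup1. It was 49.9% for Mup20, 80.7% for Mup21 and 86.7% for Mup3. How the authors assigned shared reads is not given in the sources used here. The separate values of Mup1, Mup7, Mup9, Mup12, Mup14, Mup16 and Mup17 are therefore uncertain, and the sum over the members is given beside them. Values for Mup3, Mup20 and Mup21 rest on more sequence of their own.

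Levels are TPM, a unit scaled for transcript length and to a total of 1e+06 per library, so that levels of different genes can be set side by side. The number of reads per library is not given in the sources used here, and no counting error can be attached to a value. Over the 62 livers Mup9 had a mean of 9724 TPM, Mup17 8247, Mup1 2283, Mup3 2132, Mup14 401, Mup12 372, Mup7 334, Mup16 267, Mup20 37.1 and Mup21 3.00 TPM. Mup9 and Mup17 together made up 80.4% ± 3.64 (SD, n = 5) of the summed members in Con at 2 weeks. The summed members held 2.83% ± 0.99 (SD, n = 5) of all TPM in Con at 2 weeks, and between 0.77% and 5.14% in single Con livers over the 4 weeks.

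At 2 weeks the summed members were 28256 ± 9912 TPM in Con, 32989 ± 13010 in NCAC and 21422 ± 7994 in CAC (SD, n = 5 each). The 5 CAC livers lay between 9234 and 29811 TPM and the 5 Con livers between 21136 and 45218, so the groups overlapped. At 4 weeks the sum was 34475 ± 12565 TPM in Con, 25908 ± 11786 in NCAC and 24121 ± 16280 in CAC. In CAC at 4 weeks replicate 2 stood at 1222 TPM and the other 4 livers between 19785 and 40892. That liver also had the highest Lcn2, a lipocalin of inflammation, of its group (875 TPM). Replicate 4 had 661 TPM of Lcn2 with a sum of 19839 TPM, and replicate 1 had 186 TPM of Lcn2 with a sum of 19785 TPM, so 2 livers with nearly the same sum differed in Lcn2.

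At 6 weeks the 5 CAC livers had summed levels of 818, 3784, 1283, 399 and 6030 TPM. The 5 Con livers had 9796, 28940, 41301, 7654 and 51122 TPM, and the 5 NCAC livers 44327, 50482, 30844, 28004 and 43949 TPM. All 5 CAC livers were below every Con and every NCAC liver, although the highest CAC and the lowest Con liver differed by 1.27-fold only. The Con mean was 11.3-fold and the NCAC mean 16-fold the CAC mean. As a share of all TPM the members went from 2.78% ± 1.91 in Con to 0.25% ± 0.24 in CAC (SD, n = 5 each). In bulk liver RNA, fewer hepatocytes and less Mup RNA per hepatocyte cannot be told apart. The 10 hepatocyte markers summed to 102604 to 142016 TPM in these CAC livers and to 102169 to 145155 TPM in the Con livers, so that these ranges were nearly the same. Most of this sum was albumin (Alb), with means of 91497 TPM in CAC and 85290 in Con, so the sum mainly follows that 1 gene. Alb lay between 68584 and 103966 TPM in all 62 livers.

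At 8 weeks the summed members ranged from 146 to 3857 TPM in the 7 CAC livers, with a median of 712. The Con livers had 14075, 42528, 39148, 32068 and 29672 TPM, all above every CAC liver. The Con mean was 25.6-fold the CAC mean. The NCAC livers had 17971, 42370, 1785, 33724 and 29136 TPM. Replicate 3 of NCAC thus lay among the CAC livers, with 56.1 TPM of Lcn2 and 484 TPM of the acute phase gene Saa1, where the CAC livers had 384 to 1255 TPM of Lcn2 and 3365 to 44151 TPM of Saa1. Both values were below every CAC liver but above every Con liver of that week (18.2 to 27.3 TPM of Lcn2, 58.1 to 157 TPM of Saa1). Replicate 2 of NCAC, with a sum of 42370 TPM, had 71.9 TPM of Lcn2 and 612 TPM of Saa1. The summed members of the other 4 NCAC livers lay within the range of Con.

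**Figure D1:**
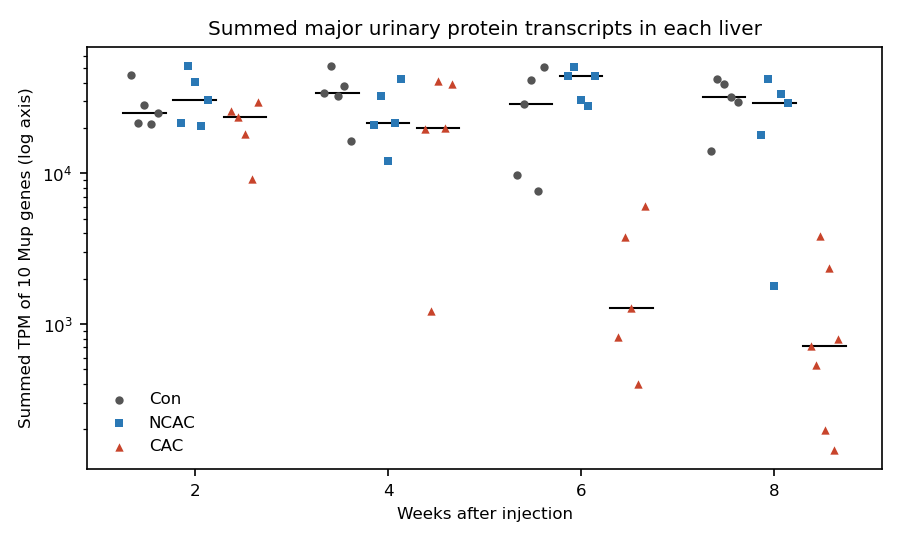
Summed TPM of the 10 members (log axis) in each of the 62 livers by weeks after injection, with 1 point per liver and a line at each group's median. CAC livers lay between 399 and 6030 TPM at 6 weeks and between 146 and 3857 at 8 weeks, and replicate 2 of CAC at 4 weeks (1222) and replicate 3 of NCAC at 8 weeks (1785) stood below the rest of their groups.

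Differences were tested on the log2(TPM + 1) scale with limma over all 12160 genes that passed the filter, and a gene was called at an adjusted p (Benjamini-Hochberg) under 0.05. On this scale the change of low genes is understated. At 2 weeks 0 of the 10 members were called in CAC against Con, where 0.00822% of all genes tested were called, and 0 had an unadjusted p under 0.05. At 4 weeks 0 were called, against 1.91% of all genes, and again 0 had an unadjusted p under 0.05. All 10 differences at 4 weeks were negative, from -1.38 for Mup17 to -0.27 for Mup21. Their median was -0.78, against -0.05 over all genes. The value for Mup17 includes the low replicate 2 of CAC, with 311 TPM against 7543 to 12065 in the other 4 livers. How far the other differences rest on that liver was not tested.

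At 6 weeks, in libraries that the choice of members did not use, 9 of the 10 members were called lower in CAC than in Con. Over all genes tested 10.3% were called lower and 5% higher in this comparison. With the libraries rescaled by their median of ratios, these shares were 5.68% and 8.45%, and the same number of members, 9, was called lower. The median difference of the members was -3.74, against -0.12 over all genes. Mup21 was the member not called.

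Mup9 had 3932, 10023, 18716, 3098 and 15338 TPM in the Con livers at 6 weeks and 321, 1201, 341, 132 and 1845 TPM in the CAC livers. No CAC liver reached the lowest Con liver. The difference was -4.01 ± 0.78 (SE, limma adjusted p = 0.000214). Mup17 fell by 3.75 ± 0.80 (adjusted p = 0.000690). Mup1 fell by 3.72 ± 0.86 (adjusted p = 0.00189). Leaving out any 1 library of the comparison kept the calls of Mup1, Mup3, Mup7, Mup9, Mup14, Mup16, Mup17 and Mup20.

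Mup3, the member with the most sequence of its own, had 809, 2703, 1465, 916 and 3805 TPM in Con and 44.4, 464, 255, 135 and 494 TPM in CAC at 6 weeks. These groups did not overlap either. Its difference was -2.98 ± 0.62 (adjusted p = 0.000518). Mup20 had 24.8, 36.5, 42.2, 22.2 and 78 TPM in Con and 2.27, 13.5, 7.35, 6.84 and 15.7 TPM in CAC, again without overlap. It fell by 2.11 ± 0.44 (adjusted p = 0.000517), fewer log2 units than Mup9, but whether the 2 genes fell unequally was not tested.

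Mup21 differed from the other members in its values. In Con at 6 weeks it had 2.02, 4.12, 2.26, 1.72 and 2.11 TPM, and in CAC 2.17, 1.19, 2.09, 2.80 and 2.53 TPM. The groups overlapped, with a difference of -0.11 ± 0.18 (adjusted p = 0.700). Over all 62 livers Mup21 stayed between 1.19 and 5.97 TPM, and at a level this near the pseudocount of 1 TPM a change is compressed on the log2 scale. At 8 weeks its difference was -0.01 ± 0.17, with means of 2.55 TPM in both groups. Because Mup3 and Mup21 are neighbours in the cluster and the closest pair among the divergent members, the 300 bases around their start sites are printed, from 250 before to 50 after, as RefSeq gives them (GRCm38.p6, minus strand, 5′ to 3′). Mup3 lies at chr4:62087268-62087567 and Mup21 at chr4:62150792-62151091. Capitals mark bases that differ between the 2 genes or stand opposite a gap in the alignment (21 in Mup3, 18 in Mup21).
Mup3: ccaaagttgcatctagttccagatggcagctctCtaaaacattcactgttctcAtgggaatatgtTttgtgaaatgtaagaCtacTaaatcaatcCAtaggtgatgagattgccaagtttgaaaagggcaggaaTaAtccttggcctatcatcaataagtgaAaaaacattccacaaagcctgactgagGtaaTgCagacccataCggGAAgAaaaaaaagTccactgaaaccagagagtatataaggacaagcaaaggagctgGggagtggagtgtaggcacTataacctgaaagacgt
Mup21: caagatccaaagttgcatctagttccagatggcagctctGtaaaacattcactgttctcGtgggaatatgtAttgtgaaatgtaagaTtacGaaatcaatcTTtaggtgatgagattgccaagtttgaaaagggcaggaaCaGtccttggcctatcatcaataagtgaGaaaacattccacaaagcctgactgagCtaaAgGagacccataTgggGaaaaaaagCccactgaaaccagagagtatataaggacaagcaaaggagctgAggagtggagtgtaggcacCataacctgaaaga
These windows are identical at 276 of 297 aligned columns (92.9%), while those of Mup9 and Mup17 are identical at 98.0% and those of Mup9 and Mup3 at 76.8%. RefSeq windows were found for 6 of the 10 members (Mup3, Mup7, Mup9, Mup14, Mup17 and Mup21). The letters TATATAA, searched on both strands after the windows had been seen, are in 5 of the 6 (all but Mup7), and in 3.25% of 32817 windows of this length. They begin 31, 25, 11 and 8 bases before the annotated start of Mup9, Mup17, Mup3 and Mup21, and 12 after that of Mup14. The annotated starts are thus not at matching places. The window of Mup7 ends at bases that in Mup9 lie before TATATAA, so the matching place is outside it. The STAT5 pattern TTCNNNGAA and the C/EBP pattern TTGCNNAA, also on both strands, are in 0 of the 6, and in 8.29% and 10.8% of all windows. A missing match says only that these letters are not in these 300 bases.

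**Figure D2:**
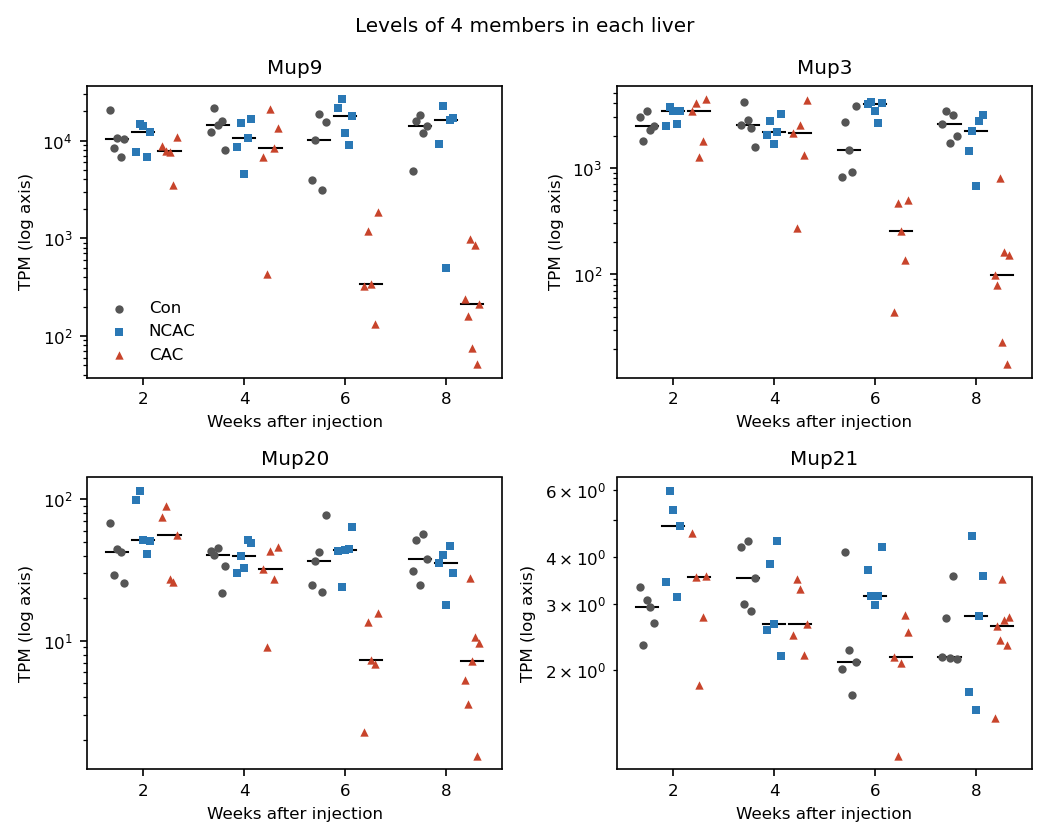
TPM (log axis, a separate scale in each panel) of Mup9, Mup3, Mup20 and Mup21 in each of the 62 livers by weeks after injection, with 1 point per liver and a line at each group's median. At 6 weeks the CAC livers lay below all Con livers for Mup9, Mup3 and Mup20, whereas Mup21 lay between 1.19 and 5.97 TPM in all livers.

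Mup7, Mup14 and Mup16 are near copies of Mup9. At 6 weeks all 3 fell, with differences of -3.81 ± 0.92 (adjusted p = 0.00289), -4.10 ± 0.94 (adjusted p = 0.00164) and -3.56 ± 0.91 (adjusted p = 0.00507). Mup7 ranged from 1.83 to 52.5 TPM in CAC and from 54.9 to 1243 in Con, without overlap. Mup14 ranged from 3.41 to 78.2 TPM in CAC and from 61.9 to 4211 in Con, and Mup16 from 0.345 to 45.8 in CAC and from 42.5 to 349 in Con, so that both overlapped slightly. In all, 5 of the 10 members (Mup3, Mup7, Mup9, Mup17 and Mup20) had every CAC liver below every Con liver at 6 weeks, as did 10% of all genes tested.

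Mup12 fell by 3.96 ± 1.35 (adjusted p = 0.0376), a call that was lost without any 1 of 5 livers. Its Con values at 6 weeks were 2.44, 15.8, 50.1, 11.4 and 8549 TPM, against 0.635, 11.9, 0.894, 0 and 7.72 TPM in CAC. Without replicate 5 of Con, which holds the value of 8549, the difference was -2.10 (adjusted p = 0.260). Without replicate 3 of Con, or replicate 1, 3 or 4 of CAC, it stayed between -3.95 and -3.53 (adjusted p from 0.0606 to 0.101). The call was also lost with no filter on low values (adjusted p = 0.0655), with the libraries of the week alone (adjusted p = 0.125) and without libraries of at least 100 TPM of Ctrb1, a pancreatic protease gene (adjusted p = 0.0542).

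The high Mup12 liver was not the only one. Mup12 had a median of 19.5 TPM over all 62 livers, but reached 3996, 1678 and 1671 TPM in replicates 2, 3 and 4 of Con at 8 weeks and 5915 TPM in replicate 4 of NCAC at 6 weeks. Mup14, with a median of 219 TPM, was high in the same Con livers, at 4211 TPM in replicate 5 at 6 weeks and at 4527, 3595 and 1776 TPM in replicates 2, 3 and 4 at 8 weeks, while replicate 4 of NCAC at 6 weeks had 260 TPM of Mup14. Mup12 made up 16.7% of the summed members in replicate 5 of Con at 6 weeks and 21.1% in the high NCAC liver. Its mean share was 0.08% ± 0.04 (SD, n = 5) in Con at 2 weeks. Of the 5 livers with high Mup12, replicate 5 of Con at 6 weeks and replicate 2 of Con at 8 weeks also held the muscle transcript Acta1 (486 and 226 TPM), and replicates 2 and 4 of Con at 8 weeks the pancreatic transcript Ctrb1 (1906 and 282 TPM). Their part in the Mup12 values was not tested.

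**Figure D3:**
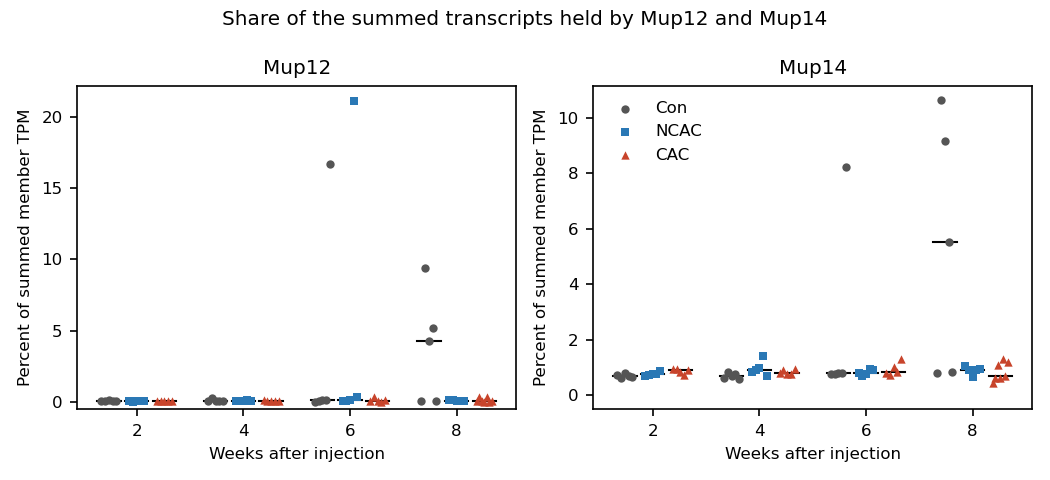
Percent of the summed TPM of the 10 members that Mup12 (left) and Mup14 (right) held in each of the 62 livers, with 1 point per liver and a line at each group's median. Mup12 held 16.7% and 21.1% in 1 Con and 1 NCAC liver at 6 weeks, and Mup14 stood out in the Con livers with high Mup12 and not in that NCAC liver.

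The NCAC arm, which also carries a melanoma, gives a second comparison. In NCAC against Con 0 of the 10 members were called at 2 weeks, 0 at 4 weeks and 0 at 6 weeks, where 0% of all genes tested were called at each of these weeks. At an unadjusted p under 0.05 there was 1 member at 2 weeks, 0 at 4 weeks and 1 at 6 weeks. At 6 weeks all 10 differences from Con were positive, between 0.19 and 1.5, and the summed members in NCAC had a mean of 39521 ± 9628 TPM against 27762 ± 19089 in Con (SD, n = 5 each). In CAC against NCAC 0 members were called at 2 weeks (0% of all genes) and 0 at 4 weeks (1.27% of all genes), with 1 and 0 at an unadjusted p under 0.05.

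At 6 weeks 9 members were called lower in CAC than in NCAC, against 5.54% of all genes tested. For all 10 members, Mup21 included, each CAC liver lay below each NCAC liver, as in 5.89% of all genes tested. Mup9, Mup3 and Mup20 fell, with differences of -4.995 ± 0.78 (adjusted p = 4.23e-06), -4.12 ± 0.62 (adjusted p = 1.99e-06) and -2.29 ± 0.44 (adjusted p = 0.000136). Mup12 ranged from 0 to 11.9 TPM in CAC and from 35.1 to 5915 in NCAC, with a difference of -5.45 ± 1.35 (adjusted p = 0.00343). Mup21 had means of 2.15 TPM in CAC and 3.44 in NCAC, a difference of -0.51 ± 0.18 (adjusted p = 0.0581). The comparisons of CAC with Con and with NCAC share the CAC livers.

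Whether the difference between CAC and Con at 6 weeks exceeded that at 2 weeks was tested as an interaction over both weeks. Of the 10 members 2 were called, Mup3 with -3.06 ± 0.88 (adjusted p = 0.0383) and Mup20 with -2.40 ± 0.62 (adjusted p = 0.0186), where 1.3% of all genes tested were called lower. All 10 interaction values were negative, with a median of -3.36 against -0.05 over all genes. Of the members 8 had an unadjusted p under 0.05. The share of all genes at that threshold is not given here. Near copies share reads, so these 8 are not separate results. The number called went from 0 to 5 when single libraries were left out. It was 0 without replicate 2 of CAC at 2 weeks or replicate 1 of CAC at 6 weeks, 5 without replicate 5 of CAC at 6 weeks, and 3 without replicate 1 of Con at 2 weeks or replicate 4 of Con at 6 weeks. Leaving out any of 9 further libraries left 1 call, that of Mup20. Those were replicates 1 and 5 of CAC and 2, 4 and 5 of Con at 2 weeks, and replicate 4 of CAC and 2, 3 and 5 of Con at 6 weeks. In Con at 6 weeks against Con at 2 weeks 0 members were called (0.123% of all genes), and 0 had an unadjusted p under 0.05.

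At 8 weeks the members were chosen on this comparison, and 35.3% of all genes tested were called lower and 5.87% higher in CAC than in Con (13.2% and 13.3% with median-of-ratios rescaling). The differences ran from -7.15 for Mup12 to -0.01 for Mup21, with a median of -5.16. Mup9 had 4849, 15735, 18443, 11907 and 14244 TPM in Con and 51.3 to 974 TPM in the 7 CAC livers, with a median of 214. Every CAC liver was below every Con liver for 7 members, while Mup12, Mup20 and Mup21 overlapped. Over all genes tested 6.09% were separated in this way. Mup12 and Mup14 had the widest differences (-7.15 and -7.03), and their Con means included the 3 livers with high values named above. In NCAC against Con the same 2 genes stood at -4.17 and -2.68, and the other members between -1.20 and 0.06.

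**Figure D4:**
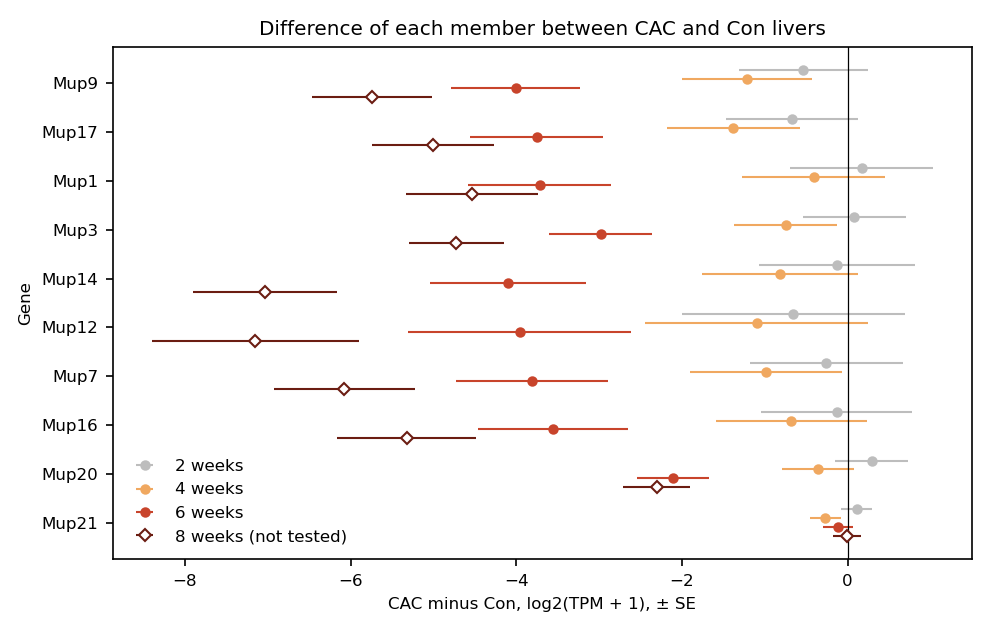
Difference of CAC minus Con in log2(TPM + 1), with SE, for each of the 10 members at 2, 4, 6 and 8 weeks after injection. The open diamonds of 8 weeks carry no test, since the members were chosen on them, and Mup21 stayed between -0.27 and 0.11 at all 4 weeks.

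Libraries with transcripts of other tissues were present. Of the 62, 12 had at least 100 TPM of Ctrb1, a pancreatic protease precursor, or at least 10 TPM of Acta1, skeletal muscle actin. The 12 markers of exocrine pancreas, 0 of which were at 0 in every library, summed to between 4.03 and 6755 TPM, and the 10 muscle markers, also with 0 at 0 throughout, to between 0.467 and 1234 TPM. At 6 weeks the pancreatic sums ranged from 14.6 to 731 TPM in Con and from 8.07 to 418 in CAC, and the muscle sums from 1.00 to 1234 in Con and from 0.482 to 202 in CAC. Without the 12 libraries, which removed 2 Con livers and 1 CAC liver at 6 weeks, 5 members were called lower in CAC than in Con (Mup1, Mup7, Mup9, Mup17 and Mup20) and 3.53% of all genes. Mup3 then stood at -2.30 (adjusted p = 0.0549), Mup14 at -3.22 (0.0562), Mup16 at -3.13 (0.0785) and Mup12 at -1.91 (0.411). Against NCAC 9 members were still called without these libraries, where 3.66% of all genes were lower. For the interaction 0 members were called, where 0.0905% of all genes were lower. Salivary and lacrimal glands transcribe other Mup genes. Of 9 gland markers in the table, 5 were at 0 in every library, so the sum of all 9 rests on the few others. This sum lay between 104 and 274 TPM in all 62 livers. At 6 weeks it lay between 139 and 183 TPM in CAC and between 181 and 274 in Con. The part of other tissues in the Mup values was not tested.

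Among the 11 other numbered Mup symbols, Mup10 was the highest of all, with a mean of 14296 TPM over the 62 livers, followed by Mup2 with 1495. At 6 weeks Mup10 had 14514 ± 8094 TPM in Con and 2056 ± 2248 in CAC (SD, n = 5 each), and fell by 3.39 ± 0.75 (adjusted p = 0.00103). Mup2 (-3.32 ± 0.76, adjusted p = 0.00168) and Mup11 (-3.42 ± 0.67, adjusted p = 0.000229) fell as well. Mup8 and Mup13, with means of 2.09 and 4.47 TPM over all libraries, also fell (-1.32 ± 0.36, adjusted p = 0.00909, and -1.59 ± 0.41, adjusted p = 0.00531). Mup15, Mup18 and Mup19 were not called, and Mup4, Mup5 and Mup6 were too low to be tested. All numbered Mup symbols together held 4.37% ± 2.77 of all TPM in Con at 6 weeks and 0.47% ± 0.48 in CAC (SD, n = 5 each).

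Growth hormone signalling is the pathway known to drive Mup transcription. At 6 weeks 1 of its 21 tested genes, Ghr, was lower and 2 were higher in CAC than in Con, with a median difference of -0.24 against -0.12 over all genes. Over all genes tested 10.3% were lower and 5% higher. Ghr, the growth hormone receptor, fell from a mean of 99.96 TPM in Con to 60.2 in CAC, a difference of -0.75 ± 0.16 (adjusted p = 0.00104). Its highest CAC liver (80.5 TPM) was below its lowest Con liver (87.8). Socs3 and Stat3, which act in cytokine signalling, rose by 2.86 ± 0.29 (adjusted p = 9.67e-11) and 0.90 ± 0.14 (adjusted p = 2.15e-06). Stat5b, the main mediator in liver, had means of 16.7 TPM in CAC and 20.02 in Con (-0.22 ± 0.19, adjusted p = 0.414), and Jak2 7.92 in both. Igf1, Socs2 and Cish, targets of this signal in this list, were not called lower. The part of growth hormone signalling in the Mup values was not tested. Igf1, which encodes the circulating growth factor, stood at -0.14 ± 0.13 (adjusted p = 0.455), and the feedback inhibitors Socs2 and Cish at 0.47 ± 0.40 (adjusted p = 0.427) and 0.78 ± 0.53 (adjusted p = 0.308). Without the 12 libraries with transcripts of other tissues 0 genes of this list were lower and 2 higher at 6 weeks. Of all genes 3.53% were then lower and 3.87% higher. At 8 weeks 7 genes of this list were lower and 2 higher, and with median-of-ratios rescaling 4 were lower and 5 higher. The share of this list called lower was near that of all genes, of which 35.3% were lower (13.2% after rescaling). Among the 7 were Ghr (-0.67 ± 0.15, adjusted p = 0.000434), the phosphatase Ptpn6 (-0.77 ± 0.13, adjusted p = 9.40e-06), Stat5a (-0.66 ± 0.16, adjusted p = 0.000778) and Stat5b (-0.55 ± 0.17, adjusted p = 0.00895).

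Of 22 transcription factors of hepatocytes 1 was higher and 1 lower at 6 weeks, with a list median of -0.21. Over all genes tested 5% were higher and 10.3% lower. Cebpd, an acute phase factor, rose by 1.89 ± 0.32 (adjusted p = 2.12e-05), and Cebpa, which drives many liver genes, fell by 0.66 ± 0.24 (adjusted p = 0.0495). With median-of-ratios rescaling, or without the 12 libraries with transcripts of other tissues, 0 factors were lower and 1 higher. Of all genes 5.68% were lower and 8.45% higher with the rescaling, and 3.53% and 3.87% without those libraries. At 8 weeks 2 factors were higher and 4 lower (4 and 2 with median-of-ratios rescaling). Of all genes 5.87% were higher and 35.3% lower at 8 weeks (13.3% and 13.2% with the rescaling). Cebpa then had a mean of 124 TPM in CAC against 256 in Con, a difference of -1.12 ± 0.22 (adjusted p = 5.94e-05), and Foxa1 fell by 0.75 ± 0.22 (adjusted p = 0.00494). At 6 weeks Hnf4a, the master regulator of hepatocytes, stood at 0.19 ± 0.16 (adjusted p = 0.417), Cebpb at 0.64 ± 0.31 (adjusted p = 0.143), the glucocorticoid receptor Nr3c1 at -0.43 ± 0.17 (adjusted p = 0.0796) and Zbtb20, a repressor of fetal liver genes, at -0.76 ± 0.29 (adjusted p = 0.0644). The sex-dependent factors Bcl6, Cux2 and Onecut1 stood at -0.81 ± 0.45 (adjusted p = 0.200), 0.46 ± 0.44 (adjusted p = 0.478) and -0.24 ± 0.60 (adjusted p = 0.816).

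**Figure D5:**
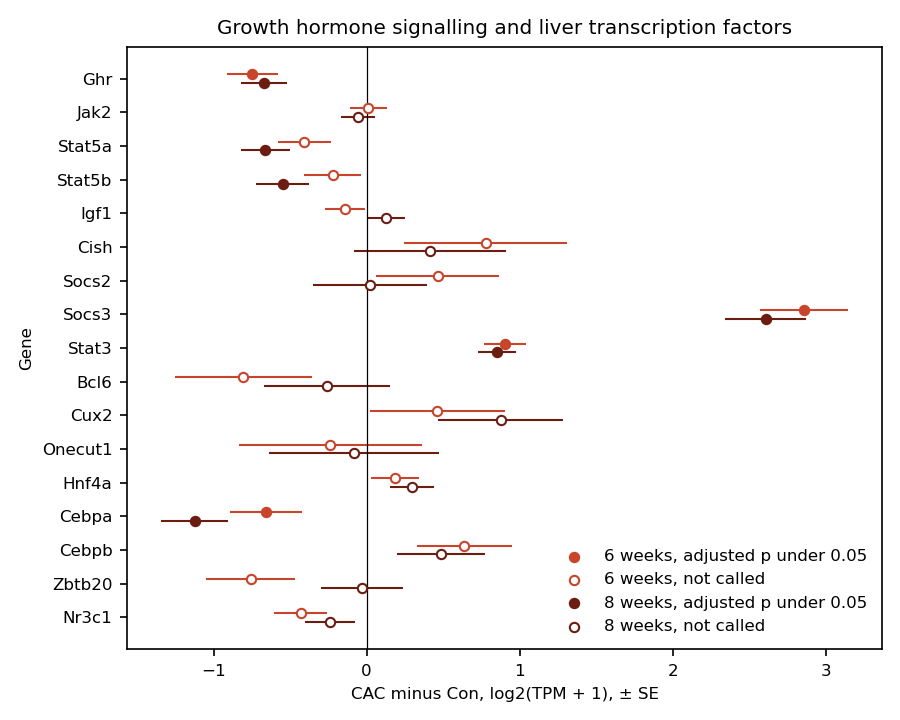
Difference of CAC minus Con in log2(TPM + 1), with SE, at 6 and 8 weeks for genes of growth hormone signalling and for transcription factors of the liver, with filled points where the adjusted p was under 0.05. Ghr and Cebpa lay below 0 and Socs3 and Stat3 above 0 at both weeks, while Jak2, Igf1, Socs2 and Cish were not called.

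Because Mup genes are male-biased, other sex-biased liver genes were counted beside them. Of 20 tested male-biased genes 8 were lower and 1 higher in CAC than in Con at 6 weeks, with a median of -0.62. Of 25 female-biased genes 9 were lower and 0 higher, with a median of -0.69. Over all genes tested 10.3% were lower and 5% higher at 6 weeks, with a median of -0.12. At 8 weeks the counts were 12 lower and 1 higher of the male-biased genes, and 10 lower and 3 higher of the female-biased genes, where 35.3% of all genes tested were lower. With median-of-ratios rescaling 9 male-biased and 8 female-biased genes were lower, against 13.2% of all genes. Without the 12 libraries with transcripts of other tissues, 4 male-biased and 5 female-biased genes were lower at 6 weeks, against 3.53% of all genes. The steroid dehydrogenase gene Hsd3b2 (-2.62 ± 0.40, adjusted p = 2.77e-06), the carboxylesterase Ces3a (-2.27 ± 0.41, adjusted p = 7.02e-05), the glucuronosyltransferase Ugt2b1 (-1.29 ± 0.24, adjusted p = 0.000120) and the hydroxylase Cyp7b1 (-1.36 ± 0.28, adjusted p = 0.000357) fell among the male-biased genes. Among the female-biased genes Hao2 (-3.46 ± 0.45, adjusted p = 7.90e-08), Cyp2b9 (-1.84 ± 0.28, adjusted p = 2.24e-06), Cyp2b13 (-2.84 ± 0.47, adjusted p = 1.28e-05) and Cyp4a10 (-2.52 ± 0.47, adjusted p = 0.000124) fell. Both lists thus held genes that were lower.

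Other binding proteins of plasma moved in both directions. Of 16 tested lipocalins and related carriers 5 were higher and 2 lower at 6 weeks, with a median of 0.00. Over all genes tested 5% were higher and 10.3% lower at 6 weeks, and 5.87% and 35.3% at 8 weeks. With median-of-ratios rescaling these shares were 8.45% and 5.68% at 6 weeks, and 13.3% and 13.2% at 8 weeks. Lcn2 rose by 5.29 ± 0.57 (adjusted p = 5.93e-10), from 4.43 to 96.9 TPM in the Con livers to 402 to 1081 TPM in the CAC livers. The acid glycoprotein lipocalins Orm1, Orm2 and Orm3 rose by 2.23 ± 0.22 (adjusted p = 7.55e-11), 3.92 ± 0.41 (adjusted p = 3.61e-10) and 2.50 ± 0.30 (adjusted p = 1.22e-08). Serpina6, the corticosteroid-binding globulin, fell by 3.01 ± 0.60 (adjusted p = 0.000254), and Fabp1, the fatty acid carrier of hepatocytes, fell by 1.86 ± 0.41 (adjusted p = 0.00119). Without the 12 libraries named above 5 were higher and 1 lower at 6 weeks, against 3.87% and 3.53% of all genes. At 8 weeks 6 genes of this list were higher and 6 lower. Of 25 plasma proteins of hepatocytes 12 were higher and 2 lower at 6 weeks (13 and 0 with median-of-ratios rescaling), with a median of 0.28, and 10 were higher and 4 lower at 8 weeks (15 and 2). Haptoglobin (Hp) and hemopexin (Hpx), which bind free hemoglobin and heme, rose by 2.50 ± 0.23 (adjusted p = 1.70e-11) and 1.94 ± 0.18 (adjusted p = 1.13e-11), while Alb stood at 0.10. In NCAC against Con 0 genes of any of the 6 lists were called at 6 weeks, where 0% of all genes tested were called.

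Within groups the members varied over a wide range, and most of them varied together. The correlation of a member with the sum, taken over deviations of the 62 libraries from their group means, was 0.98 for Mup9 and for Mup17, which make up most of the sum, 0.93 for Mup7, 0.92 for Mup1, 0.89 for Mup14, 0.88 for Mup16, 0.86 for Mup3, 0.73 for Mup20, 0.56 for Mup12 and 0.15 for Mup21. These values come from the same libraries and, for the near copies, from shared reads, so they are a description. Among the other 7013 genes whose mean over the libraries reached 5 TPM, the closest to the sum by the same measure were Ces3a (r = 0.79), the sulfotransferase Sult2a8 (0.76), Acsf2 (0.70), the steroid 5-alpha-reductase Srd5a1 (0.70), Nudt7 (0.70), Dock8 (0.69), Ugt2b1 (0.68) and the carboxylesterase Ces1f (0.68). The most opposite were Rab4a (-0.73), Gtf2a2 (-0.69), Abcd4 (-0.68) and Kng1, which encodes kininogen (-0.67). At 6 weeks Sult2a8 had 341 to 734 TPM in Con and 23.4 to 147 TPM in CAC, a difference of -2.99 ± 0.44 (adjusted p = 1.12e-06), and Ces1f fell by 2.34 ± 0.51 (adjusted p = 0.000852). Srd5a1 was not called at 6 weeks (-0.45 ± 0.27, adjusted p = 0.229).

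Ranked by the summed members, the 14 lowest of the 62 livers were the 5 CAC livers of 6 weeks, the 7 CAC livers of 8 weeks, replicate 2 of CAC at 4 weeks and replicate 3 of NCAC at 8 weeks. The next in rank was replicate 4 of Con at 6 weeks with 7654 TPM. Over these 14 livers Lcn2 lay between 384 and 1255 TPM in the 13 CAC livers and at 56.1 TPM in the NCAC liver. Within CAC at 8 weeks replicate 3 had the highest sum (3857 TPM) and the lowest Saa1 (3365 TPM) of its group, whereas replicate 5 had the next highest sum (2359 TPM) and the highest Saa1 (44151 TPM).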

How the data were processed

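Liver RNA was extracted with Trizol, and stranded TruSeq mRNA libraries were sequenced on a NovaSeq instrument, per the labels' protocols. The authors deposited 1 table of TPM values for 47643 symbols in 62 libraries, each summing to 1e+06. The build is mm10, per the submitters' processing notes. For the aligner, the quantifier, the assignment of reads shared by Mup copies and the depth, nothing is given in the sources used here. Without counts, no count model was used.

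Columns were matched to samples by name. The 12160 genes that reached 1 TPM in 5 or more libraries were fitted as log2(TPM + 1) with limma 3.58.1 in R 4.3.3, using 12 group means over 62 libraries and eBayes with its trend option. Adjusted p-values (Benjamini-Hochberg) are over all genes tested, and p-values measure only the spread between these libraries. Sums of members and comparisons at 8 weeks for members carry no p. The members and the gene lists were chosen with earlier results of these data known. Besides the members, genes were named by a rule: a set of 16 fixed genes, up to 4 genes of each list with the smallest p in CAC against Con at 8 weeks, and the 8 closest and 4 most opposite genes in likeness to the sum. Saa1, Alb and further list genes were added after their values were seen. Gene positions and coding sequences are from GENCODE M21 (GRCm38), promoter windows from RefSeq (GRCm38.p6). The fit was tested on simulated data. Alternatives were another pseudocount, other filters, 3 rescalings, each week alone, robust moderation, a replicate block, each library left out and libraries with Ctrb1 left out. Leaving out those with Ctrb1 or Acta1, and reading single members and lists under the alternatives, was chosen after seeing the data. Python 3.11.15, NumPy 2.4.6, pandas and matplotlib 3.10.9 were used for levels and figures.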

Additional observations from a re-analysis of the deposited data

Results flagged for a closer look

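Within each group of 5 or 7 livers, the highest and the lowest liver were compared with the rest of the group (Dixon's test on log2(TPM + 1)) for the 10 members and their sum. Of 132 groups 15 held a liver far from the others, where chance alone gives about 1 in 20, and the 11 series are not independent of each other.

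Replicate 2 of CAC at 4 weeks was below its group for the sum (1222 TPM, against 19785 to 40892 in the other 4), Mup9 (428 against 6862 to 21141), Mup17 (311 against 7543 to 12065), Mup14 (11.3 against 155 to 366) and Mup12 (0.729 against 13.3 to 32.4). Replicate 3 of NCAC at 8 weeks was below its group for the sum (1785 TPM, against 17971 to 42370), Mup9 (491 against 9301 to 22326), Mup1 (202 against 2092 to 3692), Mup14 (11.4 against 191 to 379) and Mup16 (9.75 against 424 to 641). Replicate 4 of CAC at 2 weeks, which held 377 TPM of Ctrb1, was low for Mup17 (2913 TPM, against 7392 to 10113) and Mup12 (3.21 against 14.2 to 24.3), and replicate 5 of Con at 4 weeks was low for Mup17 (5606 against 12936 to 17926). Replicate 1 of Con at 2 weeks was high for Mup7 (705 TPM, against 191 to 260), and replicate 2 of Con at 6 weeks was high for Mup21 (4.12 against 1.72 to 2.26).

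The difference of CAC from Con was larger at 6 than at 2 weeks by the limma interaction for Mup3 (-3.06, adjusted p = 0.0383) and Mup20 (-2.40, adjusted p = 0.0186), and both calls depended on single libraries, as given above.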

How the results depend on the processing

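The counts of members called at 2 and 4 weeks, and in NCAC against Con and Con at 6 against 2 weeks, were 0 under every alternative run. For CAC against Con at 6 weeks 8 or 9 members were called under the alternatives listed from the start, single libraries left out included, and 5 without the libraries with Ctrb1 or Acta1. For CAC against NCAC at 6 weeks the range was 8 to 10. For 6 less 2 weeks the 2 calls became 1 with no filter on low values, 4 after rescaling without Mup symbols and the 20 highest other genes, 0 without the libraries with Ctrb1, 0 without those with Ctrb1 or Acta1, and 0 to 5 when single libraries were left out. For these changes the cause was not tested. Of 84 recomputed log2 ratios of summed members, 84 stayed within 1 SD of the replicates, which is a wide limit. Medians in place of means passed it, though the Con median was 22.6-fold the CAC median at 6 weeks (means 11.3-fold). At 8 weeks the Con median was 45.0-fold the CAC median (means 25.6-fold). Leaving out single libraries gave -4.14 to -3.15 for CAC against Con at 6 weeks and -5.31 to -4.48 at 8 weeks. The count over all genes called lower in CAC than in Con went from 1254 to 691 at 6 weeks and from 4291 to 1600 at 8 weeks with median-of-ratios rescaling, and those called higher from 608 to 1027 and from 714 to 1613, as the median of all genes moved from -0.21 to 0.01 at 8 weeks. Depth is unknown, so what it limits cannot be stated.

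Libraries with the same replicate number and week were not more alike than those with other numbers. Whether the numbers stand for any pairing of animals cannot be told from this. Of 60 pairs with the same number and week 10 had a correlation of deviations over 0.1, with a median of -0.04, against 75 of 260 pairs with other numbers. With the replicate number as a block 8 members were called at 6 weeks in CAC against Con, as Mup12 was not called (adjusted p = 0.0531), and 2 for 6 less 2 weeks.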
